A study of Homo sapiens with 4 samples.

Results

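The chromosome 19 transcripts described here are the identifiers of a human expression array whose name starts with TC19, the field that gives the chromosome. The table held 1851 of them among 60789 identifiers, 1842 after rows with identical values on all 4 arrays were counted once, and 511 had a mean log2 signal of at least 6 over the 4 arrays. These were selected on that mean, and the 511 are called the bright chromosome 19 identifiers, or members. Because of this choice the level of the members is a description and not a finding: 27.7% of chromosome 19 identifiers were bright, against 18.3% of all identifiers. Just inside the threshold were means of 6.002, 6.017 and 6.023, and just outside it means of 5.999, 5.970 and 5.966. The platform's gene table gave 1 gene symbol to 430 members, several to 14 and none to 67. All 430 matched a RefSeq gene (GRCh38.p14) on chromosome 19, and 407 of them were protein-coding.

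The cells were KYSE 170, an established line from an esophageal cancer. All were transfected with the pCMV6 plasmid and kept as stable transfectants selected with G418 at 200 µg/ml, which the controls therefore also received. The plasmid carried the full-length STMN1 cDNA in 1 group (STMN1, 2 arrays) and no insert in the other (vector, 2 arrays). The labels call the 2 samples of a group biological repeats and speak of stable clones without giving the number of clones or saying whether the repeats were separate cultures, so p-values measure only the spread between these samples. Each array held 1 sample labelled with Cy3, and their small number limits the precision. The arrays were of similar brightness, with 18.2% to 19.1% of all identifiers at a log2 signal of at least 6. Of the epithelial genes, mean signals were 16.2 for SFN, 15.0 for KRT18, 12.4 and 15.6 for the identifiers of KRT8, 7.76 for KRT5 and 5.75 for KRT14, the last below 6. The fibroblast genes COL1A1, COL1A2, DCN and LUM and the blood cell genes PTPRC, CD3E and CD14 lay between 2.97 and 4.43. KRT5 had 6.25 and 7.23 on the STMN1 arrays and 9.01 and 8.56 on the vector arrays. KRT14 had 5.36 and 5.24 against 6.29 and 6.14. SFN and KRT8 were also lower on both STMN1 arrays, while for KRT18 the groups overlapped.

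Stathmin, the product of STMN1, binds tubulin dimers and favours the shrinking of microtubules. The only identifier whose annotation lists STMN1, TC01002383.hg.1, lists a microRNA gene beside it, and which part of the transcript it reads is not known. Its log2 signals were 5.86 and 5.77 on the arrays labelled STMN1 and 6.11 and 6.13 on the vector arrays. The groups did not overlap and the difference of -0.30 (standard error 0.14, adjusted p of 0.928 in limma) ran against the label. Every direction below is therefore that of the arrays labelled STMN1, and no signal seen here shows that the transgene was expressed.

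Chromosome 19 is the human chromosome with the densest gene content. It carries large clusters of zinc finger genes, most of whose products repress transcription through a KRAB domain, along with many genes for ribosomal proteins, the kallikrein proteases and the carcinoembryonic antigen family of adhesion proteins. Short, broadly expressed genes lie close together on it.

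The promoters of 4 members are printed because these genes had the smallest p on either side of the comparison between the groups, among those with a promoter in the RefSeq table. Each run holds 250 bases before and 50 bases after the start of the gene (GRCh38.p14), 5′ to 3′ on the strand of the gene. Capitals mark matches on either strand to TATAAA (the TATA box), TGACGTCA (the cAMP response element bound by CREB and ATF factors), GGGCGG (the GC box) and CCAAT.
GDF15, chr19:18385908-18386207, plus strand: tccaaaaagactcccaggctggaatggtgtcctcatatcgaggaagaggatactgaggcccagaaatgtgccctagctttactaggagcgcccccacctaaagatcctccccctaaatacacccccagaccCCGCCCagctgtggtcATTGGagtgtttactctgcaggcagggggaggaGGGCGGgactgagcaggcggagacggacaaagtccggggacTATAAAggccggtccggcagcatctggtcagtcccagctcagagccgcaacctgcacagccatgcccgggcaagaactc
PPP1R15A, chr19:48872171-48872470, plus strand: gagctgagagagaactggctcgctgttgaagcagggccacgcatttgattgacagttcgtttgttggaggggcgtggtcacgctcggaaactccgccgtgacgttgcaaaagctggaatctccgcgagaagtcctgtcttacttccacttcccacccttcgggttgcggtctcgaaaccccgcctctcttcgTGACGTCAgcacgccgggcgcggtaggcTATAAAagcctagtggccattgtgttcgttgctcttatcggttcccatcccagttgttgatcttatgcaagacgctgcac
NOTCH3, chr19:15200946-15201245, minus strand: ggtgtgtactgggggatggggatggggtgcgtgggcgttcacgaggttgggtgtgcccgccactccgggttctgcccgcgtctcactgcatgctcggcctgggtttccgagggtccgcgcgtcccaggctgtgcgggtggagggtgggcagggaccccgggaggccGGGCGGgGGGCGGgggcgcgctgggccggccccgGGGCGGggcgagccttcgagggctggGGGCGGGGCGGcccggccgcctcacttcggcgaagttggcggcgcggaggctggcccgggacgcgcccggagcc
ETHE1, chr19:43527152-43527451, minus strand: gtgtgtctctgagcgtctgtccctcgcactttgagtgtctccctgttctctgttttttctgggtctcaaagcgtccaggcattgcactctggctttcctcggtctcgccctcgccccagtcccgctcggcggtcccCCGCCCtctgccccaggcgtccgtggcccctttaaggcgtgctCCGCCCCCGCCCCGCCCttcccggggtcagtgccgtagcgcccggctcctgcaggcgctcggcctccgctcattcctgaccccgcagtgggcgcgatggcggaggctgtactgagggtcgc

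GDF15 and PPP1R15A, the pair higher on the arrays labelled STMN1, both held TATAAA, starting at base 222 and base 221 of the printed run counted from its 5′ end. This motif was in 5.59% of the 358 member promoters and in 11.53% of all 35116 promoters of the same length. PPP1R15A also held TGACGTCA from base 193 to base 200, which was in 5.31% of member promoters and 1.85% of all. GDF15 also held 2 matches to GGGCGG and 1 to CCAAT, and PPP1R15A neither. The pair that was lower held no TATAAA, TGACGTCA or CCAAT. It had GGGCGG matches, 5 in NOTCH3 (of which the last 2 share a base) and 4 in ETHE1 (the last 2 sharing a base too). GGGCGG was in 78.5% of member promoters and 45% of all, and CCAAT in 44.1% and 34.6%. The motif TGATGNAA, the core of the element read by ATF4 with C/EBP factors, was searched as well and was in none of the 4 promoters, in 0.559% of member promoters and in 3.62% of all. The 35116 promoters were not limited to bright or protein-coding genes, so their shares are not a matched background for the members. A match is a description of letters and was not tested as a site.

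To compare arrays, the mean of each identifier over its 4 values was subtracted, and the median of the 10899 bright identifiers of 20 chromosomes (1 to 19 and X) was then set to 0 on every array. As deposited these medians were -0.063 and 0.042 on the STMN1 arrays (replicates 1 and 2) and -0.080 and 0.085 on the vector arrays, so centring moved the vector replicate difference by over 0.1, and the values that follow are relative to all bright identifiers unless they are called deposited. On this scale the median of chromosome 19 was -0.011 on STMN1 replicate 1, 0.11 on STMN1 replicate 2, 0.026 on vector replicate 1 and -0.13 on vector replicate 2. The first replicates of both groups lay near the middle of all transcripts, the second STMN1 array stood above it and the second vector array below it, so that the groups overlapped.

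The replicate differences and the group difference were of similar size. STMN1 replicate 1 minus replicate 2 was -0.12, and vector replicate 1 minus replicate 2 was 0.16, opposite in sign. Without centring, as deposited, they were -0.23 and -0.0084, so the sign of the vector difference holds only relative to the other transcripts. The difference between the groups, STMN1 minus vector, was 0.10 (standard error 0.068, 95% interval -0.079 to 0.28, means 0.050 ± 0.086 and -0.052 ± 0.11, SD, n = 2 each). It missed the threshold (adjusted p of 0.428 in limma over 20 chromosomes). Of the chromosomes, 5% were called higher (chromosome 3, at 0.13) and 5% lower (chromosome 1, at -0.27). An exact two-sided permutation test of 2 arrays against 2 gave p = 0.667 and cannot go below 0.333. The 4 single comparisons of an array labelled STMN1 with a vector array gave -0.037 (both first replicates), 0.12 (STMN1 replicate 1 against vector replicate 2), 0.085 (STMN1 replicate 2 against vector replicate 1) and 0.24 (both second replicates). Without vector replicate 1 the difference between the groups was 0.18, while without vector replicate 2 it was 0.024 and without STMN1 replicate 2 0.041. These fits leave 1 array in a group, so only the size is given. Centred without chromosomes 1 and 19 the group difference was 0.081 (adjusted p of 0.474 in limma). Over the 18 alternatives run it ranged from 0.024 to 0.18.

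**Figure D1:**
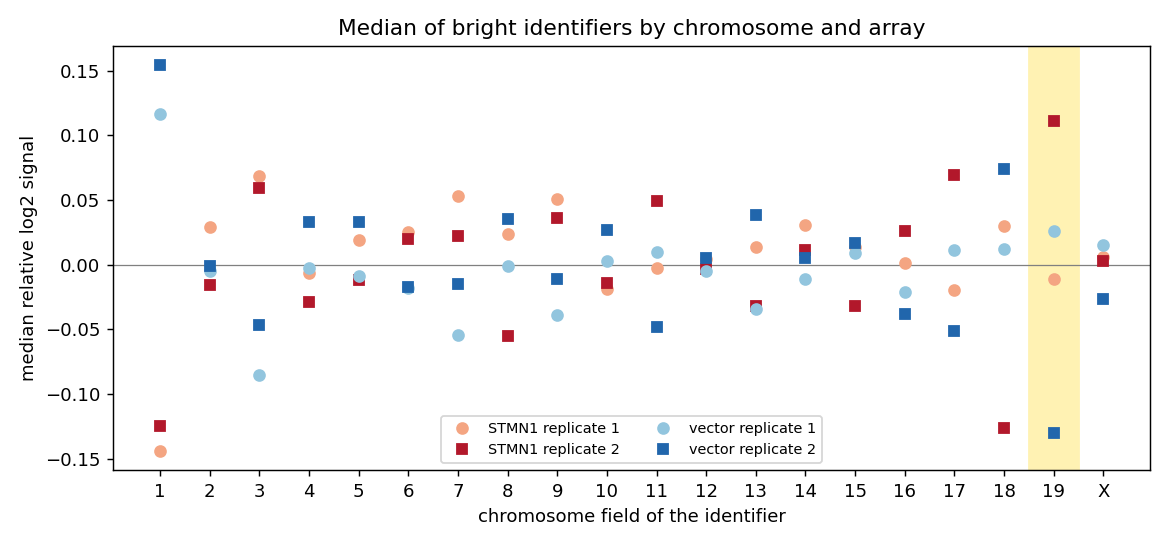
Median relative log2 signal (y axis) of the bright identifiers of each chromosome (x axis) on each of the 4 arrays, 1 point per array. On chromosome 19, shaded, STMN1 replicate 2 was at 0.11 and vector replicate 2 at -0.13, while both first replicates lay near 0; on chromosome 1 both arrays of a group lay together.

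Among the 20 chromosomes, chromosome 19 had the highest difference between the vector replicates (0.16, followed by 0.062 on chromosome 17) and the lowest between the STMN1 replicates (-0.12, followed by -0.088 on chromosome 17). The largest STMN1 replicate difference in the other direction was 0.16, on chromosome 18. With 1 array on each side these values have no test. Single members showed the same order of arrays. After centring, STMN1 replicate 2 was above replicate 1 at 329 of the 511 members, and vector replicate 1 above replicate 2 at 362. Among the 10388 bright identifiers of other chromosomes these counts were 5147 and 5149. In the deposited values the counts were 393 and 248 for members, against 6546 and 2909 of the 10388 elsewhere. After centring, STMN1 replicate 2 was the highest of the 4 arrays at 42.7% of members, against 24.8% of the bright identifiers of other chromosomes. Vector replicate 2 was the lowest at 49.5% of members, against 27.1% elsewhere. Both held at once for 138 members (27%, against 11.7% elsewhere). As deposited, STMN1 replicate 2 was highest at 273 of 511 members and vector replicate 2 lowest at 150, against 3285 and 1442 of 10388 elsewhere. Identifiers are not independent replicates, since they share the 4 arrays.

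After centring most members were shifted, with a wide spread around the median. As deposited, the median vector replicate difference was -0.0093 over members and -0.17 over the bright identifiers of other chromosomes. The values that follow are centred. From the 25th to the 75th percentile, the vector replicate differences of single members ran from -0.048 to 0.35 on chromosome 19 and from -0.22 to 0.19 on the other chromosomes. The STMN1 replicate differences ran from -0.35 to 0.085, against -0.23 to 0.21 elsewhere. The SD over identifiers was 0.43 for the vector difference on chromosome 19 and 0.43 elsewhere, and 0.38 against 0.41 for the STMN1 difference. Across members the difference between STMN1 replicates and that between vector replicates, which share no array, correlated at r = -0.0056 (n = 511, across identifiers, which are not independent replicates).

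The running numbers in the identifiers follow the genome. In the lower part of the numbers, 517 of the 518 chromosome 19 identifiers with 1 gene and a RefSeq strand were on the plus strand, and in the upper part all 508 were on the minus strand. Within each of these runs the number rose with the RefSeq start (Spearman's rho of 1.000 in both). The order was therefore a walk along the plus strand followed by a walk along the minus strand. On the plus strand run the median of its 264 members was -0.024 and 0.11 on the STMN1 arrays (replicates 1 and 2) and 0.031 and -0.13 on the vector arrays, and on the minus strand run of 247 members it was 0.0088, 0.11, 0.017 and -0.13. The same array order thus appeared on each strand.

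Along this order the members were split into 13 windows of 39 or 40. After centring, STMN1 replicate 2 was above replicate 1 and vector replicate 1 above replicate 2 in all 13 windows, and without centring both held in 46.2% of them. Both held in 61 of the 260 windows of other chromosomes (23.5%), among them 14 of 20 on chromosome 17 and 10 of 17 on chromosome 11, and in 0 of 16 on chromosome 3. The STMN1 replicate difference was smallest at numbers 1536 to 1676 (C19orf47 to LIG1), at -0.046, and largest at 1179 to 1269 (DOCK6 to HAUS8), at -0.20. The vector replicate difference was smallest at 198 to 332 (PRKCSH to DDA1), at 0.071, and largest at 1536 to 1676, at 0.27. Each difference thus had 1 sign along the whole chromosome on the centred scale at this window size.

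The difference between the groups was above 0 in each of the 13 windows, from 0.058 (1536 to 1676) to 0.15 (335 to 458, MVB12A to FXYD3). Of the windows, 0 were called higher and 0 lower (limma, adjusted p under 0.05 over 273 windows), where 5.49% of all windows were higher and 9.52% lower. The smallest unadjusted p was 0.0196 in limma, for numbers 1681 to 1923 (KDELR1 to CHMP2A, adjusted p of 0.0972). The groups did not overlap in 4 windows, all higher on the arrays labelled STMN1 (30.8%, against 27.8% of all windows higher and 22.3% lower). The SD over windows was 0.030 for the group difference, against a median of 0.058 on the other chromosomes, so the group difference varied less along chromosome 19 than along the median chromosome.

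**Figure D2:**
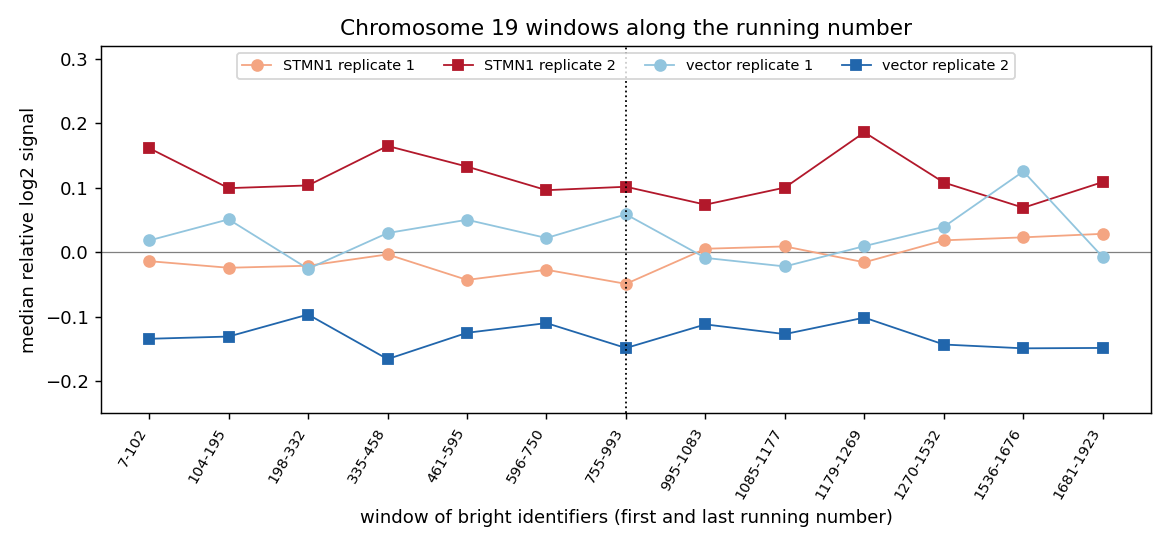
Median relative log2 signal (y axis) of each of 13 windows of chromosome 19 members, in order of running number (x axis), with 1 line per array. The dotted line marks the window that spans the change from plus to minus strand; STMN1 replicate 2 lay above STMN1 replicate 1, and vector replicate 2 below vector replicate 1, in every window on this centred scale.

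By signal level, each class of members was set against the identifiers of other chromosomes with the same mean signal on the same array. In the class of 6 to 7 (133 members) the STMN1 replicates differed by -0.056 and the vector replicates by 0.16. At 7 to 8 (99 members) they differed by -0.11 and 0.16, and at 8 to 10 (137 members) by -0.16 and 0.13. The widest differences were at 10 to 12 (72 members), -0.25 and 0.24, and at 12 and over (70 members) they were -0.20 and 0.21. The other chromosomes together gave replicate differences between -0.049 and 0.018 in these classes.

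Just below the threshold the vector difference was smaller, at 0.035 in the class of 5 to 6 against 0.16 in that of 6 to 7. The STMN1 difference was not, at -0.068 against -0.056, and shrank only in the dimmer classes. Among chromosome 19 identifiers with a mean signal of 5 to 6 (159 identifiers) the replicates differed by -0.068 in the arrays labelled STMN1 and by 0.035 in the vector arrays, at 4 to 5 (291) by -0.036 and 0.014, and at 3.2 to 4 (539) by -0.0066 and -0.026. The table carries no detection calls, so how much of the dim signal lies above background is not known.

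The difference between the groups was positive in all 5 bright classes, at 0.075, 0.11, 0.14, 0.16 and 0.11 from the dimmest to the brightest. None passed the threshold (adjusted p of 0.404 to 0.568 in limma over 97 chromosome and class combinations, of which 2.06% were called higher and 5.15% lower). Without STMN1 replicate 1 the classes of 8 to 10, 10 to 12, and 12 and over were at 0.22, 0.29 and 0.21. Without vector replicate 2 the class of 6 to 7 was at -0.0034.

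**Figure D3:**
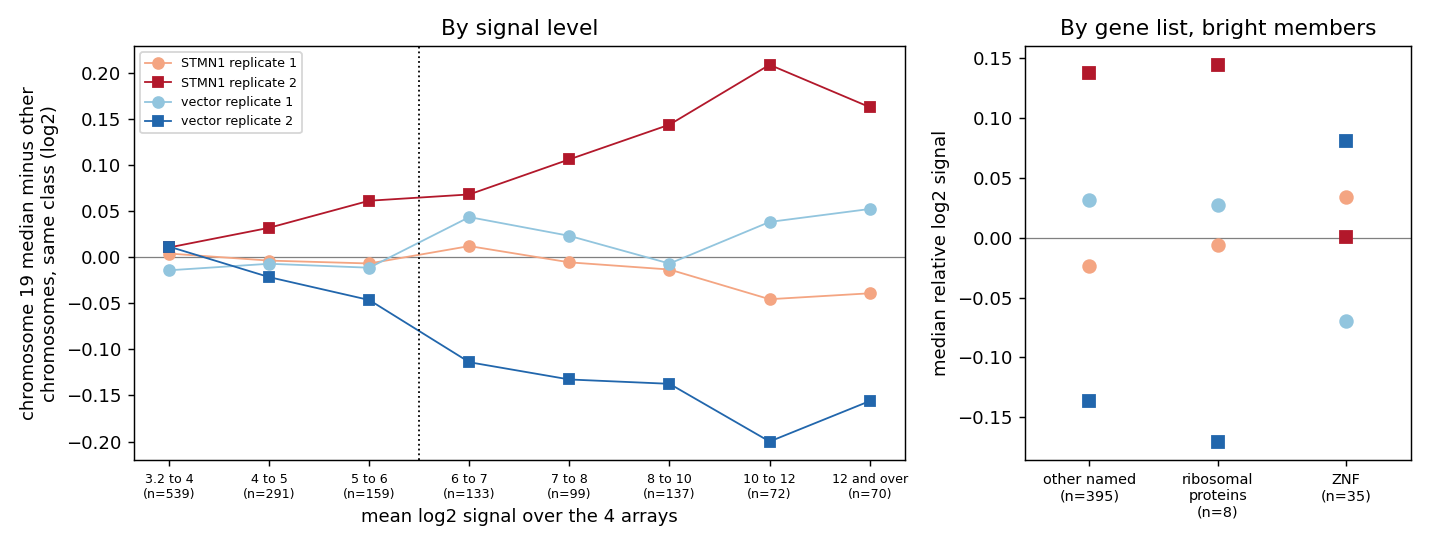
Left, median log2 signal of chromosome 19 identifiers minus that of the other chromosomes in the same class of mean signal, for each array; the dotted line marks the threshold of 6. Right, median relative log2 signal of bright chromosome 19 genes by list, 1 point per array; the 35 ZNF genes had vector replicate 2 highest, at 0.081, where the 395 other named members had it lowest, at -0.14.

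Gene families of the chromosome did not share the pattern alike. Of the 12 ribosomal protein genes looked for, 8 had an identifier of their own and all 8 were bright, with mean signals from 6.40 (RPL28) to 17.8 (RPS15). After centring, STMN1 replicate 2 exceeded replicate 1 for 8 of 8 and vector replicate 1 exceeded replicate 2 for 7 of 8. As deposited these were 8 and 5 of 8. Their centred median differences between replicates were -0.18 (STMN1) and 0.20 (vector). RPS28, a protein of the small ribosomal subunit, had deposited log2 signals of 16.46 and 17.02 on the arrays labelled STMN1 and 16.85 and 16.43 on the vector arrays. RPS19, another small subunit protein, had 14.66 and 14.98, and 14.81 and 14.42. In both genes the groups overlapped. None of the 8 had an unadjusted p under 0.05.

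Genes named ZNF, for zinc finger, had other values. Of 224 on the array, 35 were bright, with a median signal of 6.87 against 8.34 for the other 395 named members. Their medians were 0.034 and 0.00071 on the STMN1 arrays (replicates 1 and 2) and -0.070 and 0.081 on the vector arrays, so vector replicate 2 was the highest array here. After centring, vector replicate 1 was above replicate 2 at 14 of 35 ZNF genes and at 301 of 395 other named members, and STMN1 replicate 2 above replicate 1 at 14 of 35 and 272 of 395. In the deposited values the vector counts were 8 of 35 and 202 of 395 and the STMN1 counts 21 of 35 and 318 of 395, so the majority of ZNF genes for the STMN1 arrays turned with the scaling, while ZNF genes had the lower share in each of these comparisons. Among named members with a signal under 8 alone, the centred vector count was 11 of 28 for ZNF genes and 133 of 172 for the others. ZNF562 had deposited signals of 8.97 and 9.53 on the vector arrays and 9.12 and 9.28 on the arrays labelled STMN1, which lay between them. The 56 bright ZNF genes of other chromosomes had vector replicate 1 above replicate 2 at 26 after centring. The ZNF difference was noticed among lists chosen with earlier results known and rests on 1 array against 1, so it has no test.

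Kallikrein genes and the CEACAM and PSG genes were not bright in these cells. The highest of the 13 kallikreins was KLK6, with a mean signal of 5.67, and the highest of the 17 CEACAM and PSG genes was CEACAM1, with 5.10. They therefore hold no members.

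The signed replicate differences went with how densely a chromosome is packed with genes, but their size did not follow it throughout: chromosome 18, with 3.36 protein-coding genes per Mb, had a STMN1 replicate difference of 0.16. In the RefSeq table chromosome 19 had 24.8 protein-coding genes per Mb, the most of the 20 chromosomes, followed by chromosome 17 (14.0), 11 (9.63) and 16 (9.47). Across the 20 chromosomes gene density correlated with the STMN1 replicate difference at r = -0.81 and with the vector replicate difference at r = 0.89. Without chromosome 19 these were -0.80 and 0.77 over 19 chromosomes. The difference between the groups correlated with density at r = 0.28, and at 0.085 without chromosome 19. All points share the same 4 arrays and their centring, so these are descriptions without a test.

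**Figure D4:**
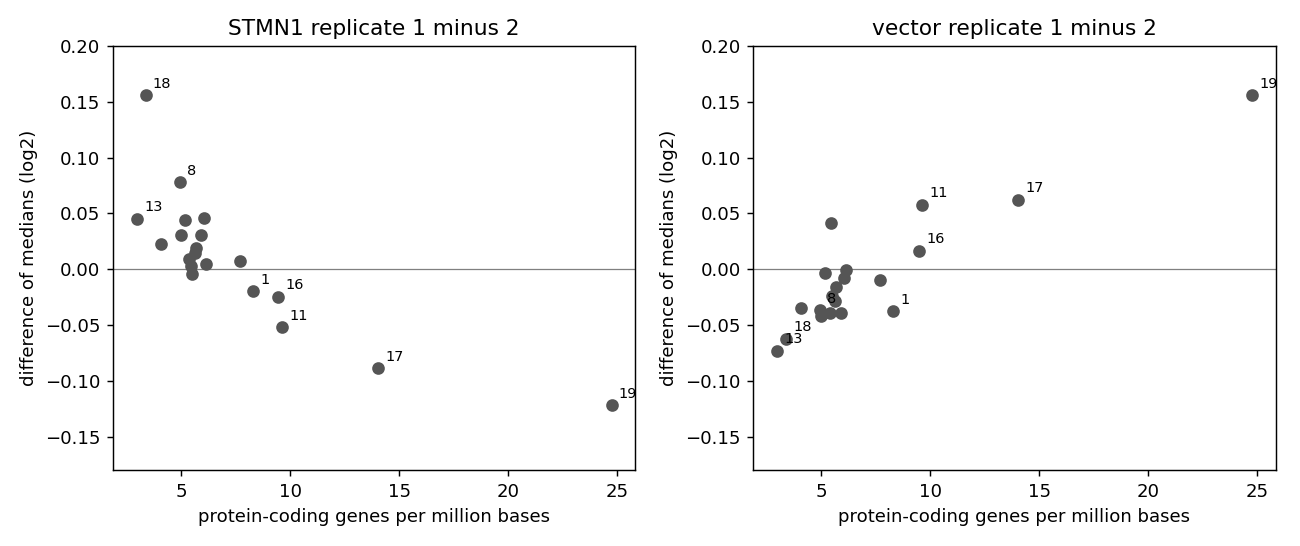
Difference of chromosome medians between replicates 1 and 2 (y axis, log2) against protein-coding genes per Mb (x axis), for the STMN1 arrays (left) and the vector arrays (right), 1 point per chromosome with some named. Chromosome 19 lay at the end of both slopes, at -0.12 and 0.16, with chromosome 17 next to it.

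Members were also shorter genes, with a median RefSeq length of 16.9 kb for the protein-coding ones against 34.8 kb for those of other chromosomes. On other chromosomes the vector replicates differed by a median of 0.10 for genes up to 19.3 kb, 0.0059 for genes from there to 54.8 kb and -0.015 for longer ones. On chromosome 19 they differed by 0.19 (225 genes), 0.14 (145 genes) and -0.031 (37 genes). The STMN1 replicates differed by -0.15, -0.15 and -0.078 on chromosome 19 and by -0.038, 0.0074 and -0.018 elsewhere. With a trend on gene length removed, fitted on the other chromosomes, the chromosome 19 differences were -0.12 (STMN1) and 0.098 (vector), against -0.13 and 0.12 for the same genes before. The difference between the groups was 0.069 with the trend removed and 0.097 before (adjusted p of 0.261 and 0.121 in limma). From the shortest to the longest class its median was 0.16, 0.064 and 0.015 on chromosome 19, and 0.080, 0.016 and -0.019 elsewhere. By the GC content of the promoter, the vector replicates differed by 0.15 in the class of lowest GC (100 members, median 58%), 0.15 in the middle class and 0.18 in the class of highest GC (110 members, median 74.3%). The STMN1 replicates differed by -0.20, -0.14 and -0.11 in the same order, and over single members GC correlated with neither difference by more than r = 0.025 (358 members, across identifiers). Base composition of the probes was not used here, and the part of gene length, density or position in the replicate and group differences was not tested.

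Between the groups no member passed the threshold on its own. Of the 511, 0 were higher and 0 lower at an adjusted p under 0.05 (limma, Benjamini-Hochberg over the 45592 identifiers tested; 0% of all bright identifiers in either direction), and the smallest adjusted p was 0.601. At an unadjusted p under 0.05, 40 members were higher (7.83%, against 5.5% of bright identifiers) and 10 lower (1.96%, against 7.19%). In the values as deposited the groups did not overlap at 130 members in the higher direction (25.4%, against 18.7%) and at 55 in the lower (10.8%, against 19.5%). After centring, these were 148 (29%, against 21.4%) and 52 (10.2%, against 21%). The median difference over members was 0.098 in the values as deposited, against -0.0032 over all bright identifiers.

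The 24 genes named next are the 12 on each side with the smallest p among members with 1 gene symbol whose groups did not overlap, and all values are log2 signals as deposited. GDF15 (TC19000356.hg.1), a secreted cytokine of the TGF-beta family that is induced by cell stress, had signals of 12.97 and 12.80 on the arrays labelled STMN1 and 11.75 and 11.56 on the vector arrays. Both arrays labelled STMN1 were more than 2-fold above both vector arrays. The difference was 1.23 (standard error 0.16), a 2.35-fold higher signal, with an adjusted p of 0.601 in limma. PPP1R15A (TC19000711.hg.1), also called GADD34, directs protein phosphatase 1 to the translation factor eIF2-alpha and is induced when that factor is phosphorylated. Its signals were 8.11 and 8.07 on the arrays labelled STMN1 and 6.47 and 6.94 on the vector arrays, and the difference was 1.39 (standard error 0.20, adjusted p of 0.601 in limma). GDF15 and PPP1R15A were the members at least 2-fold higher in all 4 comparisons of single arrays, 0.391% of members against 0.184% of bright identifiers. At least 2-fold lower in all 4 were 0 members, against 0.33%.

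Next on the higher side, LONP1, a protease of the mitochondrial matrix, had 10.41 and 10.15 on the arrays labelled STMN1 and 9.13 and 9.35 on the vector arrays, a difference of 1.03 (standard error 0.18). TOMM40, the pore of the protein translocase in the outer mitochondrial membrane, had 10.19 and 10.69 against 9.40 and 9.44. TIMM44, part of the import motor at the inner membrane, had 9.85 and 9.74 against 8.99 and 9.12. EMP3, a membrane protein, had 8.92 and 9.26 against 8.15 and 8.05.

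Of the rest on this side, NFKBIB, an inhibitor that holds NF-kappaB in the cytoplasm, had signals of 7.10 and 6.90 on the arrays labelled STMN1 and 6.25 and 6.37 on the vector arrays. CIRBP, an RNA-binding protein induced by mild cold, had 11.33 and 10.77 against 10.07 and 10.20. FBL, the nucleolar methyltransferase of ribosomal RNA, had 13.57 and 13.65 against 13.06 and 13.08, the smallest difference of the 12 at 0.54. ZNF146 and the RNA helicase gene DDX49 differed by 0.71 and 0.74, and TMEM205 by 0.70. The adjusted p of the 12 lay between 0.601 and 0.716 in limma, and over the 11 alternatives that of GDF15 and PPP1R15A ranged from 0.352 to 1.

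On the lower side, NOTCH3 (TC19001250.hg.1), a receptor of the Notch pathway, had signals of 6.28 and 6.37 on the arrays labelled STMN1 and 6.93 and 7.47 on the vector arrays. The difference was -0.88 (standard error 0.22, 95% interval -1.44 to -0.32, adjusted p of 0.701 in limma). ETHE1 (TC19001588.hg.1), a mitochondrial enzyme of sulfide breakdown, had 9.38 and 9.60 against 10.27 and 10.01. GADD45B, a stress-induced gene, had 7.67 and 7.57 against 8.32 and 8.09. FUT3, the fucosyltransferase that makes Lewis blood group antigens, had 7.66 and 7.45 against 8.19 and 8.06.

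ZFP36, which encodes tristetraprolin, a factor that speeds the decay of AU-rich mRNAs, had the widest difference of the 12 lower genes. Its signals were 7.64 and 8.68 on the arrays labelled STMN1 and 10.01 and 9.01 on the vector arrays. The replicates differed by -1.04 in the STMN1 group and by 1.00 in the vector group, more than the gap of 0.33 between the nearest arrays of the groups, and the difference of -1.35 had a standard error of 0.47 (adjusted p of 0.803 in limma). The small nucleolar RNA SNORA68 differed by -0.65, the tight junction gene TJP3 by -0.36, ZNF543 by -0.37, CAPS by -0.48 and FXYD5, a regulator of the sodium pump, by -0.46. RNA5SP468 and SNRPEP4, at -0.55 and -0.57, are pseudogenes of 5S ribosomal RNA and of a spliceosome protein. Whether their signal includes that of similar copies is not known, as probe sequences were not at hand. The adjusted p of these 12 lay between 0.701 and 0.855 in limma.

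**Figure D5:**
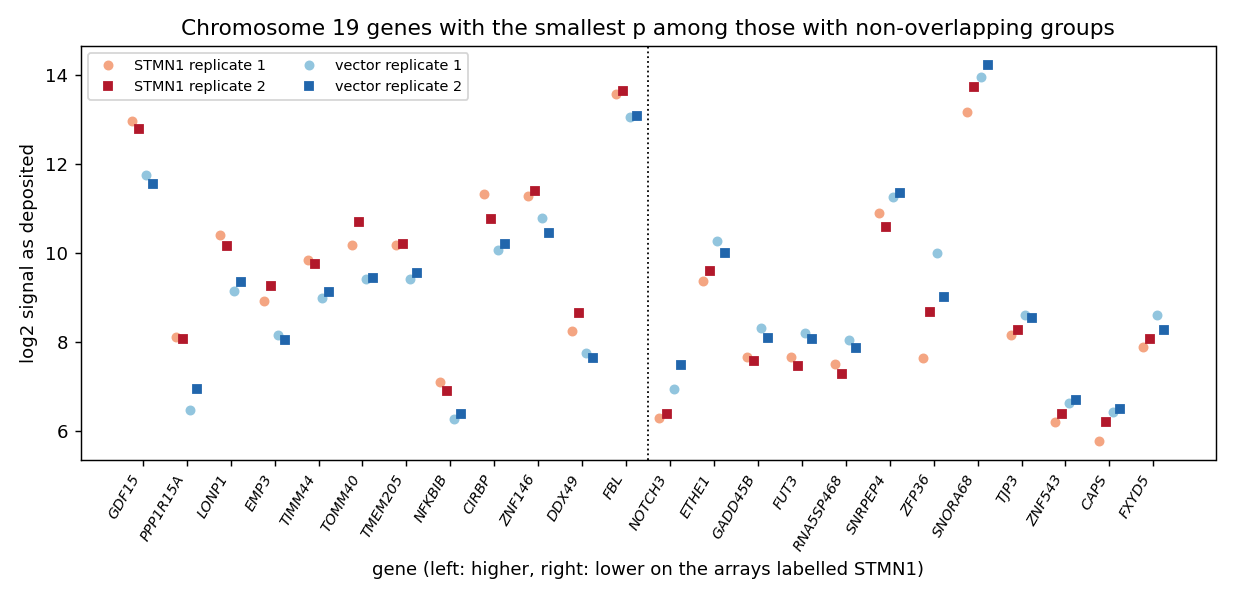
Log2 signal as deposited (y axis) of the 12 chromosome 19 genes on each side with the smallest p among those with non-overlapping groups (x axis), 1 point per array. GDF15 and PPP1R15A at the left had both arrays labelled STMN1 over 1 log2 unit above both vector arrays, while for ZFP36 the replicates of each group lay far apart.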

How the data were processed

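Total RNA of 4 samples was labelled with Cy3 (0.2 µg of RNA, per the labels' protocols) and read on 1-colour arrays. The deposited table holds log2 signals. The scale was read from the values, and the submitters' processing notes list Agilent Feature Extraction 10.7.1.1. How background and array differences were handled, and on which genome build probes were placed, is not stated in the sources used here. Identifier names are those of transcript clusters although the labels' protocol is for Agilent labelling, so how a row was made from spots is not known. A total of 0 columns of other samples were present.

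Genes come from the platform's annotation table, updated through RefSeq. Single identifiers were tested with limma 3.58.1 in R 4.3.3 (functions lmFit and eBayes, as a two-sided test without a replicate block) on the 45592 identifiers whose mean reached the 25th percentile (3.22). Medians per chromosome (at least 100 bright identifiers), per window of about 40 and per signal class (at least 20 identifiers) entered limma per array, with Benjamini-Hochberg adjustment over all chromosomes, windows or combinations and a threshold of 0.05. Differences between replicates are 1 array against 1 and have no test. Gene length, gene density, the array order per member the ZNF contrast at low signal and the uncentred values were looked at after the data had been seen. Which genes are named follows the rule given in the text. The members, the lists and the tests were chosen with earlier results of these data known. Figures and promoter searches were made with Python 3.11.15.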

Additional observations from a re-analysis of the deposited data

How the results depend on the processing

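No call was made for chromosome 19 in the fits as reported. Under the alternatives run, 114 of 125 values that answer a comparison were counted as kept, by a lenient rule. A group difference counted if it kept its direction and its side of the threshold, whatever its size, and counts of 0 that stayed 0 were included. A replicate difference counted if it kept its sign and moved by less than the pooled SD within groups of the chromosome 19 medians. That SD comes from the same replicate differences that it judges, so a marked shrinkage could still count as kept. The STMN1 replicate difference of -0.052, against -0.12, was thus counted as kept. The count of single identifiers past the threshold was 0 in either direction under all 11 alternatives in limma, with the unadjusted counts of bright members between 14 and 59 (higher) and between 6 and 15 (lower); the lowest were 14 higher without STMN1 replicate 2 and 6 lower without STMN1 replicate 1. The chromosome median passed the threshold at a mean signal of at least 5 (0.089, adjusted p of 0.0464 in limma), and was 0.024 to 0.18 when single arrays were left out. The windows called higher were 1 with 20 identifiers per window and 0 to 3 without single arrays (3 without STMN1 replicate 1), and lower ones were 0 throughout. Without single arrays the signal classes ran from -0.0034 to 0.15 (6 to 7), 0.027 to 0.18 (7 to 8), 0.059 to 0.22 (8 to 10), 0.035 to 0.29 (10 to 12) and 0.0095 to 0.22 (12 and over). A group left with 1 array takes its spread from the other group. Without centring the arrays (added after the data had been seen) the replicate differences were -0.0084 (vector) and -0.23 (STMN1), the group difference 0.089 (adjusted p of 0.976 in limma), and the windows called 0. The vector replicate difference was 0.0083 over all identifiers kept by the 25th percentile filter, where dim identifiers dominate, and the STMN1 one was -0.052 there. Under quantile normalization they were 0.16 and -0.12, and with a trend on signal removed 0.16 and -0.12. Without ZNF genes (added after the data had been seen) they were 0.16 and -0.14. In gene order over both strands (also added later) 90.9% of 11 windows had both replicate differences in the directions reported. The replicate block left the chromosome median at 0.10 (adjusted p of 0.422 in limma) and called 0 windows and 0 identifiers. The labels do not say that a number marks a shared batch, and same-numbered arrays had deviations with r = 0.14 among tested and -0.10 among bright identifiers. The causes were not tested. Signal over background is not known, which limits dim identifiers.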

Other observations

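The members with the largest difference between replicates, chosen after their values were seen, included the following. TMEM238 had deposited log2 signals of 8.24 and 9.88 on the arrays labelled STMN1 and 10.39 and 7.80 on the vector arrays, and a group difference of -0.036 (standard error 0.96). ATP5F1D, a subunit of the mitochondrial ATP synthase, had 9.92 and 11.44 against 11.23 and 9.82. TRIM28, the co-repressor that KRAB zinc finger proteins recruit, had 12.09 and 13.74 against 12.997 and 12.710, so that both vector arrays lay between the arrays labelled STMN1. DNMT1, the maintenance DNA methyltransferase, had 11.01 and 12.10 against 11.42 and 12.14, with the second replicate higher in both groups. ZNF460 and ZNF699 were high on vector replicate 2 alone, at 9.04 and 6.88, against 7.62 and 5.61 on vector replicate 1. ICAM1, an adhesion molecule induced by NF-kappaB, was lower on both arrays labelled STMN1 (9.29 and 10.53) than on the vector arrays (10.75 and 10.96), with an adjusted p of 0.890 in limma. A difference of at least 2-fold between replicates after centring was seen for 9 members on the STMN1 arrays (1.76%, against 2.9% of the bright identifiers of other chromosomes) and for 22 on the vector arrays (4.31%, against 3.74%).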
